A study of Mus musculus with 11 samples.

Results

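Integrins and laminins hold the epithelium on its basement membrane, and the 36 genes that encode their chains were followed in colonic epithelial cells of mice that lacked dietary cellulose during colitis. They are all rows of the read count table, out of 52550, that carry a symbol of an integrin α chain (17 genes), an integrin β chain (8 genes) or a laminin α, β or γ chain (5, 3 and 3 genes). The RNA came from 6 FFD mice, fed a fiber-free diet without cellulose, and 5 CD mice, whose diet contained cellulose as the only fiber. All 11 were RAG1 KO mice on the C57BL/6 background, which lack mature T and B cells. Each received the diet for 4 weeks and then dextran sulfate sodium (DSS), which damages the epithelium of the colon, in the drinking water for 5 days. No mice without DSS were in this comparison, the sources used here do not give the age of the animals, and the first number in the sample titles is 1 for all CD mice and 2 for all FFD mice. If these numbers mark a cage or a batch, its effect and that of the diet cannot be told apart.

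Laminins are trimers of an α, a β and a γ chain that form the sheet of the basement membrane next to the cell. The trimer that holds the Lama3 and Lamb3 chains anchors epithelia and is deposited by migrating epithelial cells at wound edges, whereas Lama2 and Lama4 are known mainly as chains of muscle, nerve and blood vessels. Integrins are dimers of an α and a β chain that bind such matrix proteins outside the cell and the cytoskeleton inside it. The dimer of Itga6 and Itgb4 forms hemidesmosomes on laminin, the dimers of Itgb1 with Itga1, Itga2 and Itga3 bind collagens and laminins, and those of Itgav with Itgb6 or Itgb8 release active TGF-β from its latent form. A further branch, with Itgb2 and Itgb7, belongs to leukocytes.

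Total counts were 10374154 to 27973285 per FFD mouse (median 24261218) and 20853535 to 28588266 per CD mouse (median 25543054), so FFD mouse 4, with the lowest total, is the least precise. The 36 chains held 0.158 to 0.196% of all counts in FFD mice and 0.134 to 0.151% in CD mice. CPM stands for the counts of a gene scaled to the TMM-normalized total of its library. Differences were tested with the quasi-likelihood test of edgeR over 15044 genes and adjusted by the Benjamini-Hochberg method at a threshold of 0.05, with log2 fold changes taken as FFD over CD. Rag1, the gene deleted in all mice, averaged 1.08 CPM in FFD and 1.17 CPM in CD mice (where in the gene these reads fell was not analysed here). The libraries were epithelial. Of 10 listed epithelial markers all were tested and 8 were higher in FFD mice, with a summed level of 16979 to 22675 CPM in FFD mice and 14437 to 17448 CPM in CD mice.

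Of the 36 chains, 34 had enough counts for the test, and 13 were higher and 2 lower in FFD mice. The chains that rose included Lama3, Lama5, Lamb3, Itga2, Itga3, Itga6, Itgav, Itgax, Itgb4, Itgb5, Itgb6 and Itgb8, and those that fell were Lama4 and Lamb2. Among all genes tested, 18.2% were called higher and 18.6% lower, against 38.2% and 5.88% of the tested chains. The median log2 fold change was 0.23 over the tested chains and -0.03 over all genes tested. In 7 chains all FFD mice lay above all CD mice, and in 2 chains they all lay below, whereas 8.91% of all genes tested were so separated upward and 9.59% downward. Scaling by total counts without the TMM factors moved all genes by a median of -0.15 on the log2 scale and left 10 chains higher and 4 lower. Under that scaling 1636 of all genes were called higher and 4863 lower, against 2740 and 2792 with TMM.

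**Figure D1:**
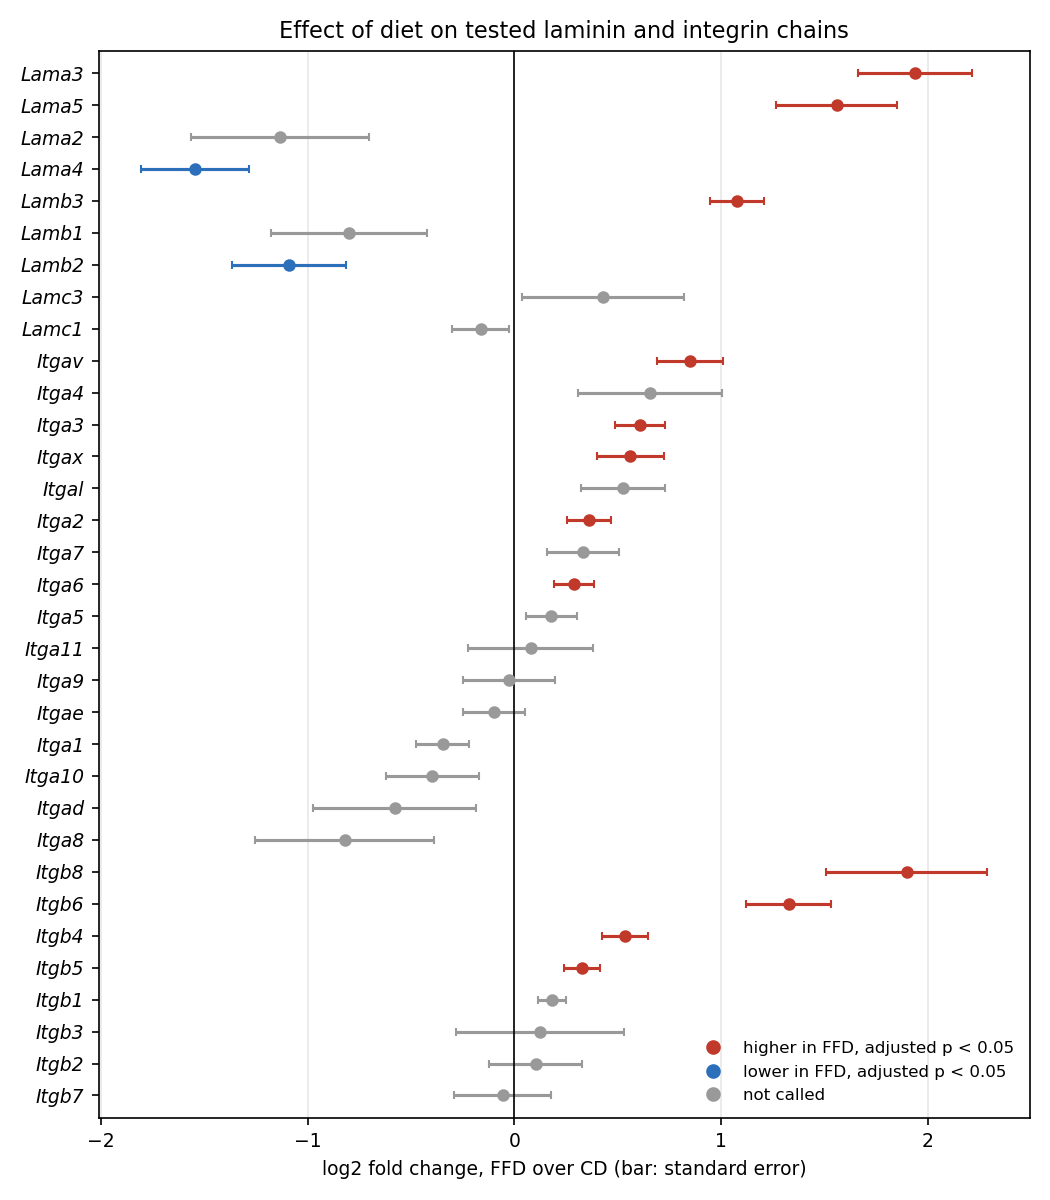
Log2 fold change of FFD over CD mice (horizontal axis, bars are standard errors from the edgeR fit of 6 FFD and 5 CD mice) for the tested chains reported here, sorted within laminin α, β and γ and integrin α and β chains. Red chains were higher and blue chains lower at an adjusted p under 0.05. The red chains reach from 0.29 for Itga6 to 1.94 for Lama3, and the blue chains are Lama4 and Lamb2.

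The laminin chains moved apart, with Lama3 and Lamb3 of the epithelial anchoring trimer higher in FFD mice and several chains of other trimers lower or not called. Lama3, its α chain, was at 24.8 to 62.7 CPM in FFD mice (median 50.3), against 15.4, 11.1, 9.26, 8.47 and 15.5 CPM in CD mice. The diets did not overlap, and FFD mice 1 and 3 (24.8 and 25.4 CPM) lay well below the other FFD mice. Lama3 thus had 45.8 ± 17.0 CPM (SD, n = 6) in FFD and 11.9 ± 3.34 CPM (SD, n = 5) in CD mice, a log2 fold change of 1.94 (standard error, SE, 0.28, edgeR adjusted p = 0.0010). The gene lies on chromosome 18 of GRCm38 from 12333819 to 12583013, where Gm29200 overlaps its exons on the opposite strand. Lamb3, the β chain of the same trimer, was at 110.2 to 169 CPM in FFD mice (median 138), against 66.0, 76.3, 48.7, 57.4 and 78.8 CPM in CD mice. Its lowest FFD mouse, mouse 3, exceeded the highest CD mouse (log2 fold change 1.08, SE 0.13, adjusted p = 7.0e-04). The calls of Lama3 and Lamb3 held in each of the 18 other settings and samplings, including the removal of any 1 mouse.

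Lama5, the α chain of the laminin found along most mature epithelial basement membranes, rose as well, from a low level. It was at 3.72 to 10.1 CPM in FFD mice (median 7.79), against 1.99, 2.02, 1.99, 2.13 and 4.29 CPM in CD mice. FFD mouse 3 lay below CD mouse 5, and otherwise the diets were apart (log2 fold change 1.56, SE 0.29, edgeR adjusted p = 0.0023). Its usual partner chains Lamb1 and Lamc1 were not called. Lamb1 was at 0.389 ± 0.194 CPM (SD, n = 6) in FFD and 0.713 ± 0.306 CPM (SD, n = 5) in CD mice (log2 fold change -0.80, adjusted p = 0.11), and passed with CD mouse 5 (-0.98) or FFD mouse 2 (-1.07) left out. Lamc1, the γ chain of most laminins, was at 5.44 ± 0.751 CPM in FFD and 6.11 ± 0.989 CPM in CD mice (log2 fold change -0.16, SE 0.14, adjusted p = 0.37). Lamc3, a γ chain of few tissues, had 8 to 37 counts per mouse (difference of 0.43 on the log2 scale, adjusted p = 0.41).

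Lamb2, a β chain known from the kidney glomerulus, the neuromuscular junction and vessels, fell in FFD mice. It was at 1.96 to 6.49 CPM in FFD mice (median 3.43), against 7.40, 11.2, 6.87, 8.41 and 8.39 CPM in CD mice. Every FFD mouse lay below every CD mouse, with FFD mice 1 and 3 (5.74 and 6.49 CPM) nearest to them (log2 fold change -1.09, SE 0.28, edgeR adjusted p = 0.0085). Lama4, the α chain of vessel laminins, had 1 to 6 counts per FFD mouse and 13 to 18 counts per CD mouse. In CPM this was 0.101 to 0.240 in FFD mice (median 0.188), against 0.517, 0.504, 0.576, 0.591 and 0.532 in CD mice. The diets were apart with a log2 fold change of -1.55 (SE 0.26, adjusted p = 0.0015), resting on 23 counts over the FFD mice and 72 over the CD mice. Lama2, the α chain of muscle laminin, had a log2 fold change of -1.14 (SE 0.43, adjusted p = 0.054), with CD mouse 4 at 2.76 CPM above all others. It passed when CD mouse 1 (-1.31) or 2 (-1.30), or FFD mouse 1 (-1.29) or 3 (-1.37), was left out. Lama2 also passed with DESeq2 (-1.13) and without TMM (-1.27). Lama1, the α chain of embryonic basement membranes, had 24 counts over the FFD and 53 over the CD mice and was too low to test.

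Markers of the cells that are known to make Lama2, Lama4 and Lamb2 ranged widely in level in both diets. Of 12 markers of fibroblasts and smooth muscle 3 could be tested and 1, Tagln, was higher in FFD mice, with summed levels of 17.2 to 20.6 CPM in FFD and 13.8 to 18.2 CPM in CD mice. Most of this sum was Tagln, at 10.6 CPM in FFD and 8.67 CPM in CD mice on average, and the pericyte receptor Pdgfrb. Pdgfrb was at 6.32 CPM in FFD and 5.06 CPM in CD mice (log2 fold change 0.32, edgeR adjusted p = 0.15). The other tested marker, the smooth muscle actin Acta2, averaged 0.550 CPM in FFD and 0.722 CPM in CD mice (log2 fold change -0.33, edgeR adjusted p = 0.57). The muscle genes Myh11 and Des, too low to test, averaged 0.182 and 0.108 CPM in FFD and 0.283 and 0.0415 CPM in CD mice. The fibroblast collagens Col1a1 and Col3a1 averaged 0.0944 and 0.0784 CPM in FFD and 0.0448 and 0.215 CPM in CD mice, and Lum averaged 0.0235 CPM in FFD and 0 CPM in CD mice. Of 11 markers of endothelium and glia 4 could be tested, among them the endothelial Pecam1, Tek and Vwf with log2 fold changes of -0.18, 0.08 and -0.51 and edgeR adjusted p-values of 0.60, 0.87 and 0.080. Their summed level was 4.65 to 6.31 CPM in FFD and 5.90 to 8.83 CPM in CD mice, with the endothelial cadherin Cdh5 at 0.0714 and 0.163 CPM on average. The part of such cells in the falls of Lama4 and Lamb2 was not tested, and in bulk RNA fewer cells of a type and less RNA per cell cannot be told apart.

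**Figure D2:**
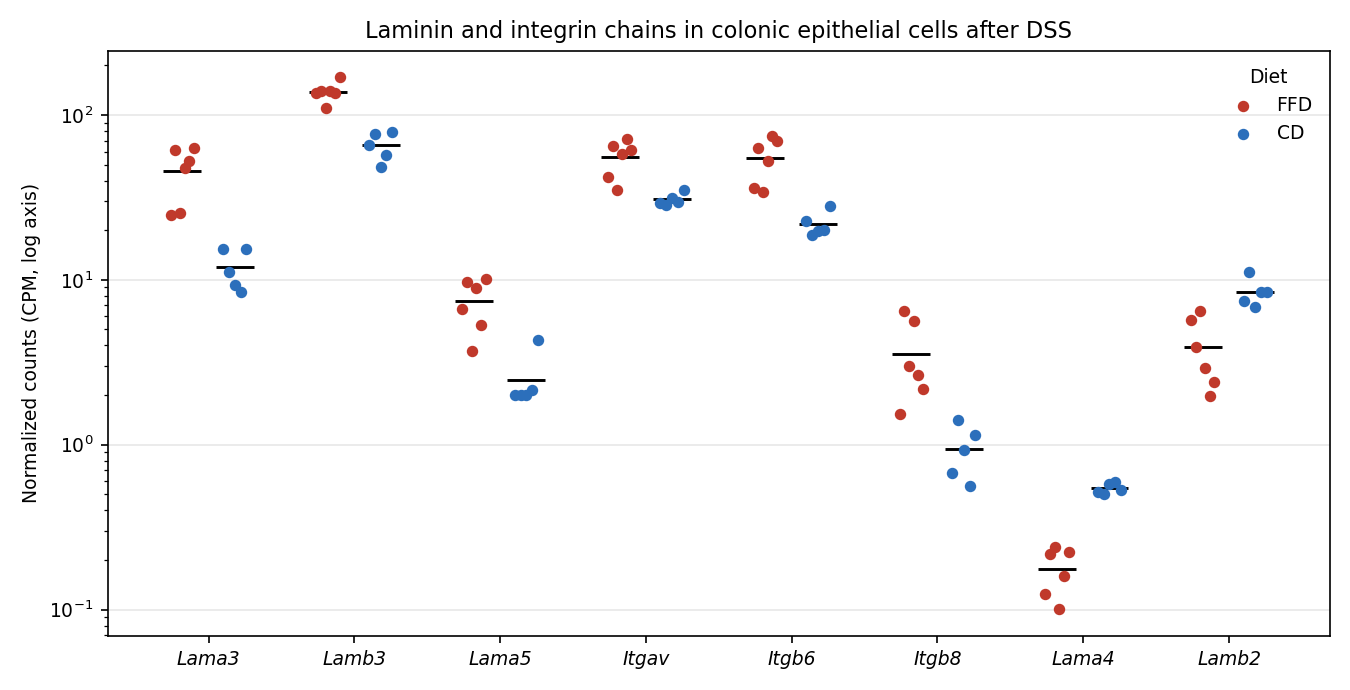
Normalized counts (CPM, log axis) of selected laminin and integrin chains, 1 point per mouse, for FFD (red, n = 6) and CD (blue, n = 5) mice, with the group mean as a bar. Lama3, Lamb3, Itgav, Itgb6 and Itgb8 are higher and Lama4 and Lamb2 lower in the FFD mice without overlap. Lama5 overlaps at 3.72 CPM in FFD mouse 3 and 4.29 CPM in CD mouse 5.

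Because longer transcripts give more reads, chains were set against each other only as CPM per kb of merged exons. On this scale Lamb3 was at 20.9 ± 2.83 (SD, n = 6) in FFD and 9.90 ± 1.92 (SD, n = 5) in CD mice. Lama3 was at 4.26 ± 1.58 in FFD and 1.11 ± 0.311 in CD mice. Lama3 was thus scarcer than Lamb3 in both diets, with a ratio of Lama3 to Lamb3 of 0.112 to 0.270 in FFD mice (median 0.220) and 0.0894 to 0.144 in CD mice (median 0.117). Among β chains Lamb3 made up 93.8 to 98.4% of the level per kb in FFD mice and 85.4 to 89.4% in CD mice, without overlap, and Lamb2 made up 1.52 to 6.00% in FFD mice and 10.3 to 13.7% in CD mice. Among α chains Lama3 led with 77.3 to 90.5% in FFD mice and 60.5 to 84.0% in CD mice, which overlapped. The lowest share was that of CD mouse 4, in which Lama1 and Lama2 were highest. Levels per kb depend on the gene models, but with the length of the longest transcript in place of merged exons the order of the β chains in FFD mice was the same and 2 of the 5 α chains changed rank, with Lama3 first by either length.

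**Figure D3:**
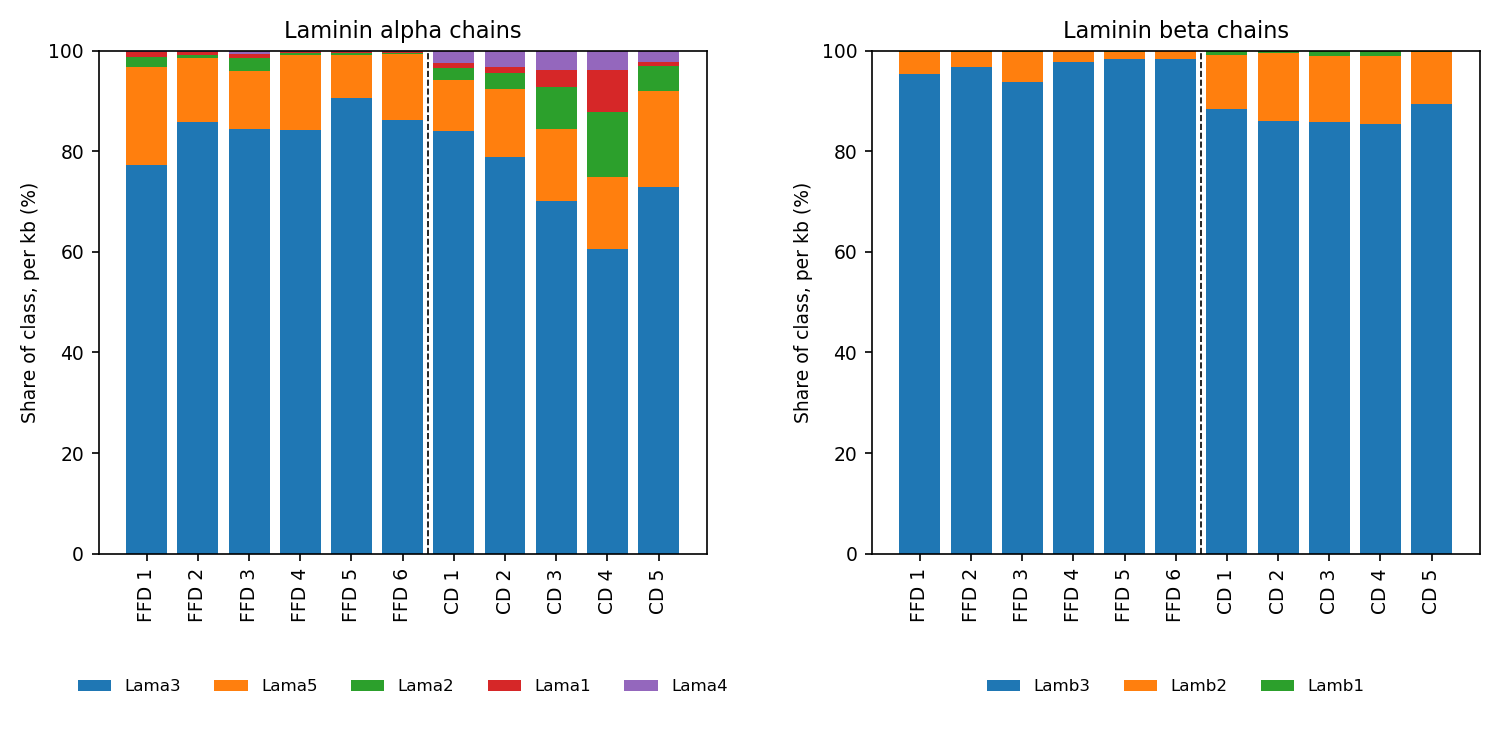
Share of each laminin α chain (left) and β chain (right) in the summed CPM per kb of its class (vertical axis, percent), for each FFD mouse and, right of the dashed line, each CD mouse. Lama3 and Lamb3 fill most of every bar. The share of Lamb3 is 93.8 to 98.4% in FFD mice and 85.4 to 89.4% in CD mice.

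Promoter windows of RefSeq on GRCm38.p6, 250 bases before to 50 after an annotated start, were available for 22 of the chains (25 windows). The windows of Lamb3 and Lama5, which rose, and of Lamb2, which fell, are shown so that the starts of laminin genes that moved in opposite directions can be compared. Capitals mark matches on either strand to the AP-1 motif TGANTCA, the GC box GGGCGG or the TATA box TATAAA. The upstream window of Lamb3 lies at chr1:193301744-193302043 on the plus strand, that of Lama5 at chr2:180225810-180226109 on the minus strand and that of Lamb2 at chr9:108479612-108479911 on the plus strand.
Lamb3: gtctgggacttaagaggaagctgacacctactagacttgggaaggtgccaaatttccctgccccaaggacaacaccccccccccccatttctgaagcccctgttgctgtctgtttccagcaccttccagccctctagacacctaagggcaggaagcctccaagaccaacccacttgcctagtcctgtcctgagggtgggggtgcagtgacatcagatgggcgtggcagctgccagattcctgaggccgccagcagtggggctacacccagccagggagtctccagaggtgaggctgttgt
Lama5: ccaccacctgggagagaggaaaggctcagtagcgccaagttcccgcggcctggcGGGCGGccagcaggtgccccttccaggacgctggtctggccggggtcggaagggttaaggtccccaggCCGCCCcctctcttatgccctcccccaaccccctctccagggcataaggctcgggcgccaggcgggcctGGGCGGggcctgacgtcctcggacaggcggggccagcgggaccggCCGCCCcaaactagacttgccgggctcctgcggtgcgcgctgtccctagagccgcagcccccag
Lamb2: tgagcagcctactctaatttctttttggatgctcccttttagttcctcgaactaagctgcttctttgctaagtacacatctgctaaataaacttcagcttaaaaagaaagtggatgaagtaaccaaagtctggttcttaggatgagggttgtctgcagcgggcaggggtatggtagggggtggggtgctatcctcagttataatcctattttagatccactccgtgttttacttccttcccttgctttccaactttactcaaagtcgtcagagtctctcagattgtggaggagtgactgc
The window of Lama5 held 4 matches to the GC box, and those of Lamb3 and Lamb2 held none of these motifs. Of all 32851 windows of the same length, 35.7% held a GC box, 7.81% the AP-1 motif and 13.6% the TATA box. Of the 25 windows of the chains 11 held a GC box, 3 the AP-1 motif (Itgax, Itga9 and the downstream start of Itga3) and 0 the TATA box.

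Of the integrin chains that bind laminin, Itga3, Itgb4 and Itga6 rose, by smaller amounts than Lama3 and Lamb3. Itga3, which with Itgb1 forms a receptor for the Lama3 and Lama5 laminins, was at 192 to 317 CPM in FFD mice (median 279.7), against 165, 157, 176, 167 and 208 CPM in CD mice. Only FFD mouse 3 lay within the range of the CD mice (log2 fold change 0.61, SE 0.12, edgeR adjusted p = 0.0029). Itgb4, the hemidesmosome chain with a long cytoplasmic tail, was at 245 to 338 CPM in FFD mice (median 326), against 228, 196, 193, 186 and 247 CPM in CD mice. CD mouse 5 lay just above FFD mouse 3, and the other mice were apart (log2 fold change 0.54, SE 0.11, adjusted p = 0.0033). Itga6, its partner, was at 321 to 452 CPM in FFD mice (median 366), against 304, 286, 333, 297 and 319 CPM in CD mice. The log2 fold change of 0.29 (SE 0.10) had an adjusted p of 0.033 from edgeR. This call was lost when CD mouse 2 (0.28) or 4 (0.28), or FFD mouse 2 (0.25), 4 (0.28) or 5 (0.23), was left out, without TMM (0.13, adjusted p = 0.23) and without an expression filter (0.29, adjusted p = 0.051). Itgb1, the partner of most of these α chains, was at 309 ± 26.0 CPM (SD, n = 6) in FFD and 273 ± 6.63 CPM (SD, n = 5) in CD mice. Its log2 fold change of 0.18 (SE 0.07) missed the threshold by a narrow margin (adjusted p = 0.050008). It passed when CD mouse 1 (0.20) or 5 (0.20), or FFD mouse 3 (0.22) or 4 (0.20), was left out. It also passed with DESeq2 (0.20), RLE factors (0.20) and a filter of 1 CPM in 5 mice (0.18). Without TMM, however, the log2 fold change was 0.024 (adjusted p = 0.76). Itga7, another laminin receptor chain known from muscle, had a log2 fold change of 0.33 (SE 0.18, adjusted p = 0.16).

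Per kb of merged exons, Itgb1 (75.7 ± 6.37 in FFD and 66.8 ± 1.62 in CD mice) was the highest β chain and Itgb4 (43.4 ± 6.14 and 29.9 ± 3.76) the next. Itga3 (46.6 ± 8.01 in FFD and 30.6 ± 3.51 in CD mice) and Itga6 (41.6 ± 6.09 and 34.1 ± 2.03) led the α chains. Itga3 had the higher mean in FFD mice and Itga6 in CD mice, and with the length of the longest transcript Itga6 was first in FFD mice as well. The ratio of Itga6 to Itgb4 had a median of 0.993 in FFD mice (0.811 to 1.04) and 1.13 in CD mice (up to 1.34), with overlap. Below these came Itga2 at 12.5 in FFD and 9.69 in CD mice on average. Each leukocyte integrin chain among the 36 averaged under 1 CPM per kb in both diets.

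**Figure D4:**
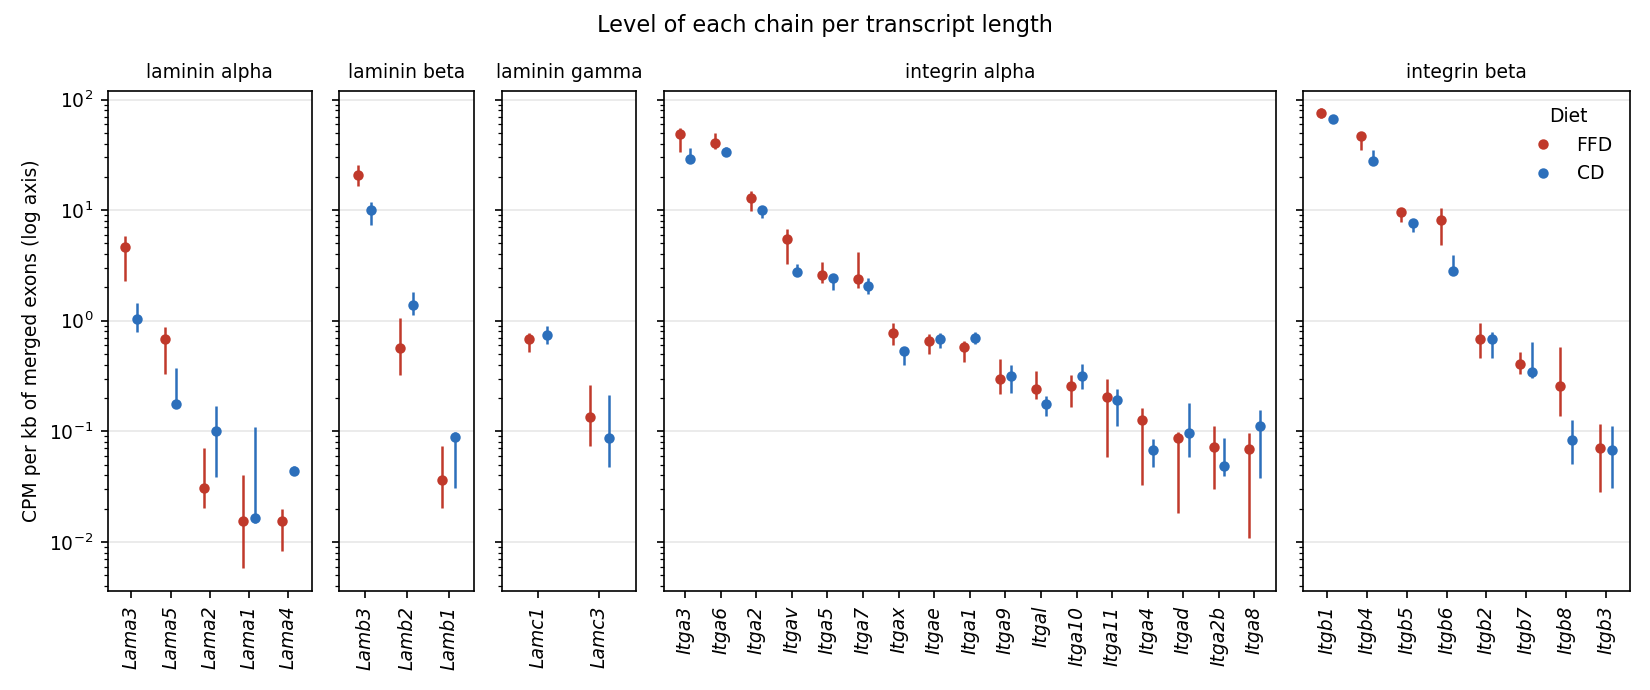
CPM per kb of merged exons (log axis) of the chains reported here in 5 classes, for FFD (red, n = 6) and CD (blue, n = 5) mice. Points are medians and lines run from the lowest to the highest mouse. Lama3, Lamb3, Itga3, Itga6, Itgb1 and Itgb4 stand highest in their classes in FFD mice.

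Genes outside the family, of hemidesmosomes, other laminin receptors and focal adhesion adaptors, were set beside the chains. Of 8 listed genes of hemidesmosomes and other laminin receptors 7 were tested, 3 were higher and none lower (median log2 fold change 0.24). The plakins Plec and Dst, of which some forms tie Itgb4 to keratin, rose by 1.14 and 0.75 on the log2 scale (adjusted p = 0.0014 and 0.0029 from edgeR). Counts per gene do not tell such forms apart. The tetraspanin Cd151, a partner of laminin-binding integrins, rose by 0.27. Plec was at 389 CPM in FFD and 177 CPM in CD mice on average. Col17a1, the transmembrane collagen of hemidesmosomes, averaged 0.576 CPM in FFD and 0.203 CPM in CD mice and was too low to test, and Dag1, the dystroglycan receptor for laminin, differed by -0.0024 on the log2 scale (adjusted p = 0.98). Of 27 focal adhesion adaptors 25 were tested, 8 were higher and 2 lower (median 0.10), but 4 were higher and 4 lower without TMM. The kinase Ptk2b (0.82), the actin crosslinker Actn4 (0.91) and vinculin, Vcl (0.32), had the smallest p-values among those that rose, and Flna (-0.45) and Actn1 (-0.31) fell. Talin, Tln1, and kindlin, Fermt1, which switch integrins to the active state, had log2 fold changes of 0.29 (adjusted p = 0.019) and -0.06 (adjusted p = 0.61).

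Itgb8, Itgb6 and Itgav are the chains of the αv integrins that bind latent TGF-β. They had the 3 largest log2 fold changes among the integrin chains of the 36 genes. Itgb6, a chain of epithelial cells that pairs with Itgav alone, was at 34.3 to 74.3 CPM in FFD mice (median 57.7), against 22.8, 18.6, 19.9, 20.03 and 28.1 CPM in CD mice. All FFD mice lay above all CD mice, with FFD mice 1 and 3 (35.9 and 34.3 CPM) the lowest (log2 fold change 1.33, SE 0.21, edgeR adjusted p = 0.0012). Itgb8, the other chain that presents latent TGF-β, was low, at 1.53 to 6.44 CPM in FFD mice (median 2.82), against 0.677, 1.404, 0.931, 0.558 and 1.14 CPM in CD mice. FFD mice 2 and 4 stood above the other FFD mice, and the diets did not overlap (log2 fold change 1.90, SE 0.39, adjusted p = 0.0033). Itgav, the shared α chain, was at 35.1 to 71.9 CPM in FFD mice (median 59.4), against 29.2, 28.4, 31.4, 29.7 and 34.9 CPM in CD mice. The lowest FFD mouse and the highest CD mouse differed by little (35.1 and 34.9 CPM), while the log2 fold change was 0.85 (SE 0.16, adjusted p = 0.0023). Itgb5, which pairs with Itgav to bind vitronectin, had 33.3 ± 3.33 CPM (SD, n = 6) in FFD and 26.5 ± 2.41 CPM (SD, n = 5) in CD mice, with a log2 fold change of 0.33 (SE 0.09, adjusted p = 0.011), lost without TMM (0.17, adjusted p = 0.097). Itgb3, which pairs with Itgav or, in platelets, with Itga2b, had 3 to 20 counts per mouse (difference of 0.13 on the log2 scale, adjusted p = 0.83). Per kb the ratio of Itgav to Itgb6 was 0.576 to 0.771 in FFD mice and 0.821 to 1.05 in CD mice, without overlap, and the ratio of Itgb6 to Itgb5 was 0.532 to 1.18 in FFD mice and 0.328 to 0.503 in CD mice.

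The promoter windows of these 3 chains are given for comparison with those of the laminins, again with motif matches in capitals. They lie at chr2:83724147-83724446 on the plus strand for Itgav, at chr2:60722554-60722853 on the minus strand for the upstream start of Itgb6 and at chr12:119238227-119238526 on the minus strand for Itgb8.
Itgav: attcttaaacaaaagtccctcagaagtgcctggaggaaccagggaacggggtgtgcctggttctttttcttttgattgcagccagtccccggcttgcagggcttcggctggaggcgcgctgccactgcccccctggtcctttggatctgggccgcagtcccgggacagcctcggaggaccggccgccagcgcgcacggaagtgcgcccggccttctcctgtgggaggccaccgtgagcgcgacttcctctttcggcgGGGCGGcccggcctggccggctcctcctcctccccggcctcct
Itgb6: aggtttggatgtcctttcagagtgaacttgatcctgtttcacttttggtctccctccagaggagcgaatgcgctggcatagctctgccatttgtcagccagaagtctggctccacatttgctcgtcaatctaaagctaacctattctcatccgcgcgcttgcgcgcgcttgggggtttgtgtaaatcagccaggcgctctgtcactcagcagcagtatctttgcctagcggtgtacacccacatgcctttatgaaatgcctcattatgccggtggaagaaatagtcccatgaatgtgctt
Itgb8: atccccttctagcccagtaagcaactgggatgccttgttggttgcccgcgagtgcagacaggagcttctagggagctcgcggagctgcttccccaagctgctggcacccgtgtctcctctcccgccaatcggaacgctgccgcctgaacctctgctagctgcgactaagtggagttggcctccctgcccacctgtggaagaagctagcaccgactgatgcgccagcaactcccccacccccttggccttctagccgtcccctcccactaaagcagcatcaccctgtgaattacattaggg
Of these 3 windows that of Itgav held a match, 1 GC box, and the AP-1 and TATA letters searched were in none of them.

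Of 12 genes that store, release or receive TGF-β 7 could be tested, 1 was higher and none lower (median log2 fold change -0.17). Tgfbr2, the receptor that binds the ligand, averaged 112 CPM in FFD and 78.1 CPM in CD mice (log2 fold change 0.52, adjusted p = 0.0042 from edgeR). The ligand Tgfb1 averaged 2.81 CPM in FFD and 3.48 CPM in CD mice (log2 fold change -0.31, adjusted p = 0.10), and Tgfb2 and Tgfb3 were too low to test. Without TMM 2 genes of this list were called lower.

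Among chains known mainly as collagen or fibronectin receptors, Itga2, of the epithelial collagen receptor, rose. It was at 69.6 to 106 CPM in FFD mice (median 92.5), against 75.7, 61.1, 73.8, 64.0 and 70.9 CPM in CD mice. FFD mice 1 and 3 lay among the CD mice and the other 4 above them (log2 fold change 0.36, SE 0.11, edgeR adjusted p = 0.019). This call was lost without TMM (0.20, adjusted p = 0.090). Itga1, the other main collagen receptor chain, was at 10.2 ± 1.90 CPM (SD, n = 6) in FFD and 12.98 ± 1.35 CPM (SD, n = 5) in CD mice. Its log2 fold change of -0.35 (SE 0.13, adjusted p = 0.051) passed when FFD mouse 2 (-0.40) or 3 (-0.40) was left out, and without TMM (-0.49, adjusted p = 0.015). Itga1 also passed with limma-voom (-0.36) and a filter of 1 CPM in 5 mice (-0.35). Itga5, the α chain of the fibronectin receptor, was at 13.3 ± 2.14 CPM in FFD and 11.7 ± 1.45 CPM in CD mice (log2 fold change 0.18, SE 0.12, adjusted p = 0.27). The collagen receptor chains Itga10 and Itga11 of cartilage and fibroblasts and the chains Itga8 and Itga9 had log2 fold changes of -0.40, 0.08, -0.82 and -0.03 with adjusted p-values of 0.18, 0.86, 0.15 and 0.94. Each of them averaged under 3 CPM in either diet.

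Most ligands in the matrix were low in these cells. The highest were Agrn, given below, and Hspg2 (18.1 CPM in FFD and 24.3 CPM in CD mice on average). Of 28 other matrix genes 17 could be tested, 3 were higher and 5 lower (median log2 fold change -0.24), with summed levels of 113 to 145 CPM in FFD and 117 to 141 CPM in CD mice. Agrn, agrin, a proteoglycan that binds laminin, rose by 0.65 on the log2 scale (75.0 CPM in FFD and 47.7 CPM in CD mice on average, adjusted p = 0.0012 from edgeR). Mfge8, a ligand of αv integrins that also binds dying cells, fell by 1.32 (adjusted p = 0.0017), and Col18a1 fell by 0.95 (adjusted p = 0.0031). Fn1, fibronectin, averaged 1.15 CPM in FFD and 0.645 CPM in CD mice (log2 fold change 0.83, adjusted p = 0.040). The number higher was 1 when CD mouse 2 or 4, or FFD mouse 6, was left out. Of 10 cell surface ligands of integrins 4 were tested and 2 rose, the junction proteins F11r (0.55) and Cdh1 (0.51), of which Cdh1 is the ligand of the dimer of Itgae and Itgb7.

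Among the 36 chains, those of leukocyte integrins were detected at low levels, and 1 of them, Itgax, was called. A row of Itgam, outside the 36, was called as well and is given below. Itgax, a chain of dendritic cells and macrophages, was at 2.89 to 4.54 CPM in FFD mice (median 3.71), against 2.71, 2.81, 1.91, 2.56 and 2.54 CPM in CD mice. The diets did not overlap (log2 fold change 0.56, SE 0.16, edgeR adjusted p = 0.016). Itgal, the α chain that binds Icam1, had 1.68 ± 0.379 CPM (SD, n = 6) in FFD and 1.17 ± 0.192 CPM (SD, n = 5) in CD mice (log2 fold change 0.53, adjusted p = 0.057), and passed without FFD mouse 1 (0.60, adjusted p = 0.040). Itgal also passed with DESeq2 (0.56), RLE factors (0.55) and a filter of 1 CPM in 5 mice (0.53). Itgb2, the β chain that Itgax and Itgal need, had 2.16 ± 0.591 CPM in FFD and 2.01 ± 0.423 CPM in CD mice (log2 fold change 0.10, SE 0.22, adjusted p = 0.75). Itga4, the α chain for Vcam1 and Madcam1, had a log2 fold change of 0.65 (SE 0.35, adjusted p = 0.16) and passed without FFD mouse 1 (0.85, adjusted p = 0.023), its lowest FFD mouse. Itgae and Itgb7, the chains of intraepithelial lymphocytes, averaged 2.93 and 1.12 CPM in FFD and 3.14 and 1.16 CPM in CD mice, with adjusted p-values of 0.63 and 0.87. Itgad had 2 to 25 counts per mouse (log2 fold change -0.58, adjusted p = 0.27), and Itga2b, the platelet chain, had 45 counts over the FFD and 41 over the CD mice and was too low to test.

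The table lists Itgam, the α chain of neutrophils and macrophages, on a pair of rows with suffixed names that the symbol rule does not take in. The row Itgam_1 averaged 11.8 CPM in FFD and 5.97 CPM in CD mice (log2 fold change 0.98, SE 0.22, edgeR adjusted p = 0.0045), and Itgam_2 had at most 20 counts in a mouse. The sources used here do not say what separates these rows. Beside these chains, 16 of 19 markers of macrophages, monocytes and neutrophils were tested and 5 were higher (Mrc1, Ly6g, Cd14, C1qb and S100a8) and none lower. Their summed level was 197 to 386 CPM in FFD and 118 to 188 CPM in CD mice. Most of it was Ly6g (153 CPM in FFD and 33.5 CPM in CD mice on average) and Cd14 (114 and 87.2 CPM). The neutrophil markers Csf3r, Cxcr2 and Retnlg averaged 0.795, 0.276 and 0.306 CPM in FFD mice. In CD mice they averaged 0.699, 0.293 and 0.268 CPM. The defining markers Cd68 and C1qa averaged 1.31 and 1.43 CPM in FFD and 1.24 and 1.35 CPM in CD mice. Of 15 lymphocyte markers 8 were tested and 2 were higher, among them the pan-leukocyte gene Ptprc (log2 fold change 0.40), with summed levels of 35.3 to 60.2 CPM in FFD and 29.3 to 42.8 CPM in CD mice. Cd3e averaged 0.0727 CPM in FFD and 0.0579 CPM in CD mice. Of 9 markers of mast cells and platelets 5 were tested and 1, Cma1, was lower, with summed levels of 26.1 to 39.4 CPM in FFD and 33.8 to 59.5 CPM in CD mice. Most of this sum was Kit, at 22.8 CPM in FFD and 32.4 CPM in CD mice on average. The mast cell protease Cpa3 averaged 0.373 CPM in FFD and 0.531 CPM in CD mice. The part of these cells in the rise of Itgax was not tested.

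The same FFD mice were lowest or highest for many of the chains that rose. A like count over all genes called was not made. Over all tested genes the chi-square per degree of freedom between FFD mice was largest for mouse 3 with mice 6 and 5 (71.6 and 68.8). Of the 13 chains that rose, FFD mouse 3 had the lowest FFD value in 9 and FFD mouse 1 in 4, whereas the highest value was that of FFD mouse 6 in 6, FFD mouse 5 in 5 and FFD mouse 2 in 2. Among CD mice CD mouse 5 was highest in 9 of the 13. Without FFD mouse 3, 14 chains were higher and 4 lower, and without CD mouse 5, 14 were higher and 3 lower. FFD mouse 4, with the lowest total count, was neither the lowest nor the highest FFD mouse for any of the 13, and without it 13 chains were higher and 2 lower.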

How the data were processed

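Each of the 6 FFD and 5 CD mice gave 1 RNA library of colonic epithelial cells. To make it, the authors released the cells with DTT and EDTA, cleared them of debris on Percoll, prepared poly(A) libraries, mapped single reads to GRCm38 with the Qiagen CLC Workbench and deposited raw counts per gene. FastQC, R 3.5.1 and DESeq2 1.22.2 appear in the submitters' processing notes. The annotation release, strand use and handling of reads with several hits were not given in the sources used, so chains whose exons overlap other genes (11 of 36) are uncertain to that degree.

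Counts were filtered with filterByExpr (minimum count 10, minimum total 15), normalized by TMM and tested for diet with the quasi-likelihood test of edgeR 4.0.16 in R 4.3.3. The standard error is the log2 fold change over the root of the F statistic. Lengths and coordinates come from GENCODE M21 (GRCm38), where all 36 chains matched. The counts of every pair of mice of 1 diet differed beyond sampling noise by a chi-square test. The test was checked on simulated data. It recovered 21 of 50 genes changed by 0.5 on the log2 scale, 41 of 50 changed by 1 and 48 of 50 changed by 2. Of the 158 genes it called there, 3 were false. The simulation changed 200 of 15044 genes, up or down at random, whereas 5532 were called in the data. It therefore cannot show how far calls in the data depend on the TMM factors. Members and gene lists were chosen with earlier results of these data known. Some genes counted here, 1 chain among them, are not reported by name or value. Of each pathway list those with the smallest p are named, and others, chosen after their values were seen, for their role. Alternatives were DESeq2 1.42.0, RLE factors, no TMM, other filters, limma-voom 3.58.1, a replicate block and each mouse left out.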

Additional observations from a re-analysis of the deposited data

Results flagged for a closer look

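Each chain was searched within each diet for a mouse that stood apart by the gap to its neighbour relative to the range of the group. Chance alone flags about 1 in 20 groups, and 3 of 72 were found. Lama5 was at 4.29 CPM in CD mouse 5, against 1.99 to 2.13 CPM in the other CD mice, and this value overlapped the lowest FFD mouse. Itga7 was at 34.1 CPM in FFD mouse 6, against 16.0 to 22.8 CPM in the other FFD mice. Lama1 was at 1.05 CPM in CD mouse 4, against 0.144 to 0.399 CPM in the other CD mice, on 32 counts.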

How the results depend on the processing

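The calls of Lama3, Lamb3, Lama5, Lama4, Lamb2, Itgav, Itgb6, Itgb8, Itga3, Itgb4 and Itgax held in every alternative run that tested them. The number of chains called higher was 10 to 15 over the other settings and 12 to 15 with 1 mouse left out, and the number called lower was 2 to 4 with 1 mouse left out. It was 4 without TMM, where Itga1 and Lama2 were added. All genes called were 4264 to 6079 with 1 mouse left out. With the replicate number as a block 11 chains were higher and 2 lower and 3782 genes were called, and the calls of Itga6 (0.29, adjusted p = 0.078) and Itga2 (0.30, adjusted p = 0.10) were lost. The labels do not say that equal numbers share a cage or day. After the diet mean of each gene was subtracted from its log2 CPM, same-numbered mice correlated at -0.28 to 0.23. Of the 5 FFD mice with a same-numbered CD mouse, 2 matched their own number best. Log2 fold changes that turned sign belonged to chains that were not called. Without TMM they were -0.075 for Itga11, -0.059 for Itgb2 and -0.023 for Itgb3. With 1 mouse left out they ranged from -0.071 to 0.22 for Itga11, -0.16 to 0.086 for Itga9, -0.0065 to 0.22 for Itgb2, -0.056 to 0.39 for Itgb3 and -0.14 to 0.15 for Itgb7. Of the lists, the focal adhesion adaptors had 4 higher and 4 lower and the TGF-β genes 2 lower without TMM, the hemidesmosome genes had 5 higher with DESeq2, and the matrix genes had 1 higher with either other filter or the block. Levels per kb changed by more than 1 SD in 33 of 72 cases with the longest transcript as length and in 1 without TMM. The length does not enter the fold changes, whereas leaving out TMM lost the calls of Itga2, Itga6 and Itgb5. The causes were not tested. Chains with few counts, such as Lama1, Itga2b and Itgad, are limited by depth.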
